A study of Apis mellifera ligustica with 12 samples.

Results

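Annotated honeybee microRNAs (miRNAs) were compared between fluvalinate-treated foragers, with the 3 treated days pooled at equal weight, and untreated bees. All entries of the miRNA table named for Apis mellifera with at least 10 counts over the 12 libraries were followed, which gave 167 of the 180 annotated honeybee miRNAs and 167 of the 1350 entries listed in all. Of the 13 left out, 5 had no count in any library. The 9 treated libraries came from Apis mellifera ligustica worker brains 10, 20 and 30 days into treatment (labelled X1D10, X1D20 and X1D30, here D10, D20 and D30, 3 libraries each). The 3 libraries labelled CK came from untreated bees and were taken as the sampling before treatment. In every difference from CK the effect of treatment therefore cannot be told apart from that of the date on which the bees were caught. It is not stated whether CK came from the separate control colonies of the study. All bees were foragers caught on return to hives of the same subspecies, the brains of several workers were pooled for each library, and the agent was a strip of fluvalinate, a pyrethroid used against mites, renewed in the hive. The labels do not say which colony a library came from, so the p-values measure the spread between these libraries only.

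A miRNA is a short RNA cut from one arm of a hairpin precursor (5p or 3p), and it directs the Argonaute protein to messenger RNAs that pair with its seed, bases 2 to 8 from its 5′ end. Paired messengers are translated less or are degraded, so a miRNA that keeps a raised or lowered level acts on many messengers at once. In insect brains miRNAs are known to take part in neuronal differentiation, memory, circadian behaviour and the change of worker bees between tasks.

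Sequences are shown for the miRNAs on which the results turn, as the deposited table gives them, in DNA letters from 5′ to 3′ with the seed in capitals. The first 4 were lower and the next 5 higher on all 3 treated days.
miR-1-3p: tGGAATGTaaagaagtatggag
miR-993-3p: gAAGCTCGtctctacaggtatct
miR-92c-5p: aGGTTGGGatgtgggcattatttg
miR-7-5p: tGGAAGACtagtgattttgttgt
miR-283-5p: aAATATCAgctggtaattct
miR-6040-3p: tAGTACGGgcagtactggga
miR-281-3p: tGTCATGGagttgctctctttgt
miR-210-3p: tTGTGCGTgtgacagcggcta
miR-375-3p: tTTGTTCGttcggctcgagtta
The next entries come from the same hairpins and are listed separately in the table, where x stands for the 5p arm and y for the 3p arm. They are shown because their levels could be set beside those of the annotated form.
miR-283-x: aAATATCAgctggtaattctga
miR-210-y: tTGTGCGTgtgacagcggctact
miR-7-x: tGGAAGACtagtgattttgttgttt
miR-375-y: tTTGTTCGttcggctcgagttaaa
miR-281-x: aAGAGAGCtatccatcgacagt
Shifts on all 3 days are counted by a size rule given below. The 13 miRNAs so counted of at least 1 CPM (counts scaled to a common library size, defined below) carried 13 different seeds. One of these seeds, AATATCA of miR-283-5p, was shared with another member, miR-6041-3p. That miRNA averaged 10.1 ± 3.75 CPM in treated libraries and 13.5 ± 0.574 CPM in CK (SD, n = 9 and 3), a pooled log2 fold change of -0.48, so the pair with a common seed did not lie on the same side of CK. miR-6041-3p and, below, the hairpin partners and neighbours of shifted members were named after their values were seen.

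The libraries held between 8454313 and 15979901 counts on listed miRNAs, of which 96.6% to 97.8% fell on the 167 members, and 145 members had counts in all 12 libraries. Levels are counts per 1000000 listed counts (CPM) after trimmed-mean (TMM) scaling. Before that scaling, 3 counts correspond to 0.188 to 0.355 CPM. One library stood apart among the treated ones. D10-2, the second D10 library, held miR-219-5p at 756 CPM, against 19.1 to 36.5 CPM in the other 8 treated libraries and 20.4 to 36.4 CPM in CK. Of the 9 miRNAs of at least 1 CPM that were higher on all 3 days by the size rule below, D10-2 had the highest level of 5. D30-3 held 220 entries counted in no other library.

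No member differed between the pooled treated days and CK after correction (edgeR's quasi-likelihood test, Benjamini-Hochberg over the 651 entries tested, 0 of 167 members, 0.0% of the members and of all entries). The smallest adjusted p was 0.442. Without correction, 18 members (10.8%) had p under 0.05, against 38 of the 651 entries (5.84%). Of these 18, 7 were higher (4.19%, against 2.61% of all entries) and 11 lower (6.59%, against 3.23%). DESeq2, run as an alternative, called 3 members, which were miR-993-3p, miR-1-3p and miR-316-5p. The share that DESeq2 called over all entries is not given here, so this count is not a result about the members as a set. The median member lay at a log2 fold change of 0.06, near the median of 0.04 over all entries tested. The median size was 0.19 with a median standard error (SE) of 0.25. For 107 of the 136 members of at least 1 CPM, the 95% interval of the pooled fold change lay within a 2-fold change in either direction, so a larger shift was outside the interval for most members measured well. It was not detectable at this depth for many of the rest, since 31 members averaged below 1 CPM.

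A member was counted as shifted on all 3 days where its log2 fold change against CK had one sign on D10, D20 and D30 and was at least 0.25 in size on each. In this sense 16 members were higher (9.58%, against 12.1% of all 651 entries) and 8 were lower (4.79%, against 6.76%). These shares lay near or below those over all entries, and the 3 daily contrasts share the CK libraries, so the number of shifted members is not in itself a result about honeybee miRNAs. Regardless of size, 54 members (32.3%, against 27.2% of all entries) were above CK on each day and 24 (14.4%, against 18.9%) below it, and 89 changed sign between days. Of the 24 shifted members, 13 averaged at least 1 CPM. Among the 136 members at this level 9 were higher (6.62%, against 8.99% of the 367 entries at this level) and 4 lower (2.94%, against 3.0%). The remaining 11 had 15 to 142 counts over all libraries. The members nearest the limit of 0.25 were miR-3478-3p inside it, whose smallest daily value was 0.26, and miR-6045-5p outside it, with daily values of 0.24, 0.39 and 0.24. Complete separation of the libraries was rarer. All 9 treated libraries lay above all 3 CK libraries for 1 member, miR-283-5p (0.599% of the members, against 0.461% of all entries). They lay below them for 2, miR-993-3p and the nearly uncounted miR-6001-5p (1.2%, against 0.614%), so that 1.8% of the members separated in either direction, against 1.08% of all entries.

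**Figure D1:**
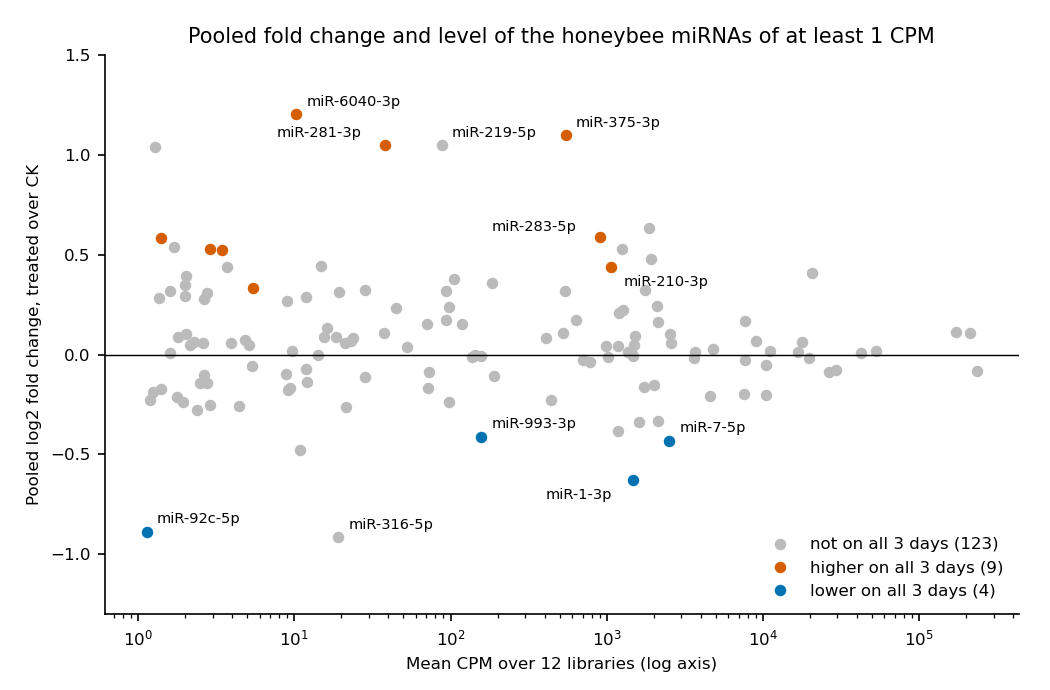
Pooled log2 fold change of treated days over CK (vertical axis) against mean CPM over 12 libraries (horizontal axis, log scale) for the 136 honeybee miRNAs averaging at least 1 CPM. Orange points were higher (9) and blue points lower (4) by at least 0.25 on all 3 days and grey points were not (123). Most points lie within 0.25 of 0, and none of the shifted miRNAs is among the 5 most abundant.

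The 4 lower members of at least 1 CPM had pooled log2 fold changes between -0.89 and -0.41. Together they took 0.289% to 0.44% of the counts in treated libraries and 0.503% to 0.563% in CK. Most of these counts belonged to miR-7-5p and miR-1-3p.

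miR-1 is known as the miRNA of muscle in flies and vertebrates. miR-1-3p was at 1847, 1268 and 1761 CPM on D10, at 940, 1392 and 1252 CPM on D20 and at 1369, 919 and 1010 CPM on D30, against 2201, 2024 and 1750 CPM in CK. The D20 and D30 libraries all lay below CK, whereas 2 of the D10 libraries lay within its range. The pooled log2 fold change was -0.63 (SE 0.16, 95% interval -0.99 to -0.27), with an adjusted p of 0.442 by edgeR's quasi-likelihood test. By day it was -0.29, -0.74 and -0.86 on D10, D20 and D30, with an adjusted p of 0.366 for a difference between the days in the same fit. DESeq2 gave an adjusted p of 0.0492. Without D10-2 the D10 value was -0.13, which falls short of the size asked for, and the pooled value was -0.58. The hairpin lies at positions 5313865 to 5313947 of linkage group 16 (Amel_HAv3.1), within the span of the gene LOC550708.

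Muscle carries a second marker miRNA, miR-133, whose hairpin lies within the span of the same gene. miR-133-3p was at 2361, 2270 and 2528 CPM on D10, 2929, 2291 and 2141 CPM on D20 and 3969, 2196 and 2694 CPM on D30, against 2574, 2306 and 2583 CPM in CK. Treated and CK libraries overlapped, and the pooled log2 fold change was 0.06 (SE 0.16, 95% interval -0.30 to 0.41). The summed level of both muscle markers was 3115 to 5338 CPM in treated libraries and 4330 to 4776 CPM in CK. In pooled tissue, fewer cells of a type and less RNA per cell cannot be told apart, and the part of muscle carried along with the brains in the level of miR-1-3p was not tested.

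miR-993-3p had the tightest levels of the lower members. This miRNA is encoded, like miR-10 and miR-iab-4, in or near the Hox gene cluster of insects, which lays out the body axis. Its level was 139, 137 and 142 CPM on D10, 144, 172 and 154 CPM on D20 and 140, 148 and 126 CPM on D30, against 195, 176 and 205 CPM in CK. Every treated library was thus below every CK library, by a narrow margin between the highest treated (172 CPM) and the lowest CK library (176 CPM). With the days pooled the log2 fold change was -0.41 (SE 0.11, 95% interval -0.65 to -0.17), at an adjusted p of 0.442 (edgeR's quasi-likelihood test). DESeq2 gave the same fold change with an adjusted p of 0.00182. An exact two-sided permutation test of 9 against 3 libraries gave p = 0.00455, the smallest value that its 220 assignments allow, and an adjusted p of 0.592 over all 651 entries. The same permutation test gave p = 0.0182 for miR-1-3p, 0.0136 for miR-92c-5p, 0.0273 for miR-7-5p and 0.0364 for miR-283-5p. For the other miRNAs with a sequence shown first above, it gave 0.0318 (miR-6040-3p), 0.0364 (miR-210-3p), 0.0864 (miR-281-3p) and 0.186 (miR-375-3p). Adjusted over all 651 entries, the values of these miRNAs were 0.9105 to 0.945. All were chosen by their sign in the same libraries, so these p-values are no further support. For the nearly uncounted miR-6001-5p the permutation test gave 0.00455 too. The values of miR-993-3p by day were -0.46, -0.29 and -0.47, and its pooled value without D10-2 was -0.40. The hairpin lies at positions 4312514 to 4312602 of linkage group 16, and no protein-coding gene of the RefSeq table spans it. miR-10-5p from the same linkage group had a pooled log2 fold change of -0.16 (SE 0.13), and miR-iab-4-5p had 61 counts in all, of which 38 were in D10-2.

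miR-7, which in flies acts in photoreceptor and other neural differentiation and steadies cell fate decisions, was among the more abundant shifted members. miR-7-5p was at 2437, 2095 and 1904 CPM on D10, 1771, 3014 and 2624 CPM on D20 and 2056, 2150 and 2708 CPM on D30, against 2936, 3458 and 2916 CPM in CK. Of the 9 treated libraries, 8 lay below CK and the remaining D20 library lay inside its range. Its pooled value was -0.43 on the log2 scale (SE 0.16, 95% interval -0.77 to -0.09), with an adjusted p of 0.652 (edgeR's quasi-likelihood test). By day the values were close to each other, at -0.53, -0.33 and -0.43. Its hairpin is at positions 8761586 to 8761672 of linkage group 9, within the span of LOC409007.

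miR-92c-5p is the rarely kept arm of a hairpin of the miR-92 family, at positions 7596195 to 7596276 of linkage group 15. It had 175 counts in all and 0.938 ± 0.32 CPM in treated libraries against 1.71 ± 0.321 CPM in CK (SD, n = 9 and 3). In 8 of 9 treated libraries the level was below that of all CK libraries, which held 17, 18 and 27 counts. The pooled log2 fold change was -0.89 (SE 0.30), with an adjusted p of 0.574 (edgeR's quasi-likelihood test), and its size was 1.23 on D10, 0.91 on D20 and 0.52 on D30. The abundant arm, miR-92c-3p, averaged 187 ± 19.5 CPM in treated libraries and 200.9 ± 37.2 CPM in CK, with a pooled log2 fold change of -0.11 (SE 0.14).

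**Figure D2:**
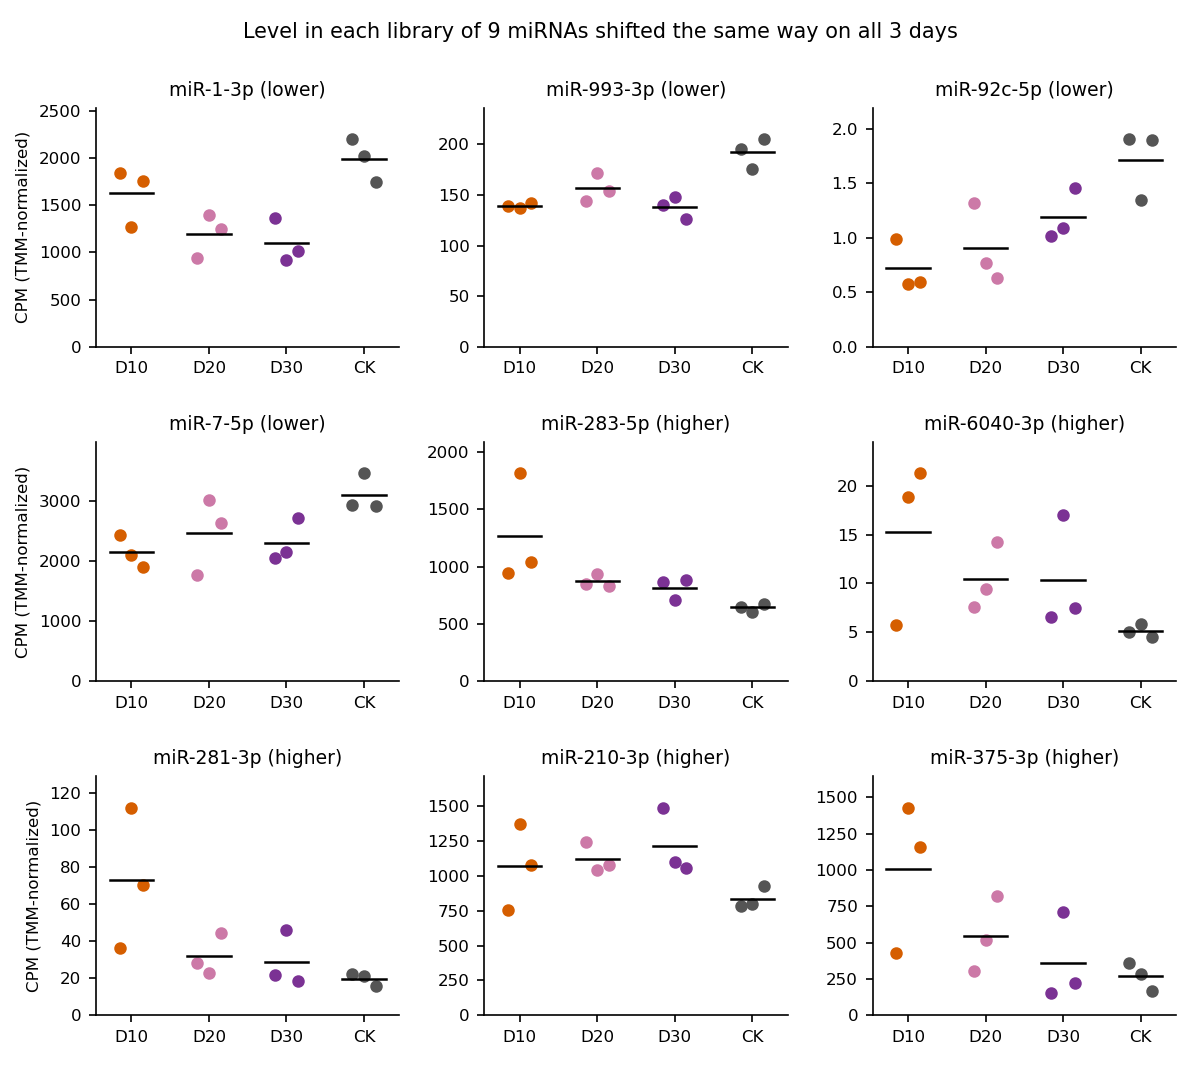
TMM-normalized CPM (vertical axes, from 0) of the 4 lower and the 5 most clearly higher shifted miRNAs in each library of D10, D20, D30 and CK; each point is 1 library and black lines are means of 3. All treated points of miR-993-3p lie below CK (126 to 172 against 176 to 205 CPM) and all those of miR-283-5p lie above it (706 to 1815 against 606 to 673 CPM), whereas the other panels overlap in part.

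The 9 higher members of at least 1 CPM had pooled log2 fold changes between 0.33 and 1.21 and took 0.217% to 0.447% of the counts in treated libraries and 0.167% to 0.194% in CK. For 6 of the 9 the largest daily value was that of D10.

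miR-283-5p was the member whose libraries separated upwards. It was at 947, 1815 and 1038 CPM on D10, 846, 939 and 828 CPM on D20 and 861, 706 and 882 CPM on D30, against 650, 606 and 673 CPM in CK. The lowest treated library lay above the highest CK library, and D10-2 was far above the rest. The pooled log2 fold change was 0.59 (SE 0.18, 95% interval 0.18 to 0.99), with an adjusted p of 0.574 (edgeR's quasi-likelihood test). Without D10-2 it was 0.48 (SE 0.09), with an adjusted p of 0.343 (edgeR's quasi-likelihood test, refitted). The value on D10 was 0.98, on D20 0.44 and on D30 0.34, and the adjusted p for a difference between the days was 0.285.

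The hairpin of miR-283 lies at positions 4842179 to 4842278 of linkage group 2, 1183 bases from that of miR-12 and 672 bases from that of miR-3477, and like them within the span of LOC411348. In flies too, miR-283 and miR-12 are neighbours. miR-12-5p averaged 2085 ± 670.3 CPM in treated libraries and 1453 ± 251 CPM in CK, with daily log2 fold changes of 0.94, 0.12 and 0.38 and a pooled value of 0.48 (SE 0.19, adjusted p of 0.732, edgeR's quasi-likelihood test). miR-3477-5p averaged 1366 ± 603 CPM in treated libraries and 904.9 ± 26.1 CPM in CK, with daily values of 1.12, 0.24 and 0.23 and a pooled value of 0.53 (SE 0.25). All 3 miRNAs of this cluster were thus above CK on every day by their means, with the largest value on D10. By single libraries this held less well. On D30 miR-3477-5p was at 802, 1550 and 841 CPM, against 879.4 to 931.5 CPM in CK. Only D30-2 thus lay above CK, and D30-1 and D30-3 lay below it. On D20 miR-12-5p was at 1438, 1388 and 1905 CPM, against 1248 to 1733 CPM in CK, so only D20-3 lay above CK. The D20 value of miR-12-5p and the D30 and D20 values of miR-3477-5p fell short of the size of 0.25.

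miR-281 is known from the midgut of mosquitoes. miR-281-3p was at 36.2, 112 and 70.4 CPM on D10, 28, 23 and 44.4 CPM on D20 and 21.7, 45.7 and 18.7 CPM on D30, against 22.1, 21 and 15.7 CPM in CK. All D10 and D20 libraries lay above CK, and on D30 only D30-2 did. This gave a pooled log2 fold change of 1.05 (SE 0.39, 95% interval 0.20 to 1.90), with an adjusted p of 0.703 (edgeR's quasi-likelihood test), and of 0.91 without D10-2. Without D30-2 the D30 value was 0.04, so its place among the members shifted on all 3 days rested on that library. The other marker of another organ, miR-989-3p of the ovary of mosquitoes and flies, is given below. The 2 together summed to 173 to 301 CPM in treated libraries and 160.0 to 178 CPM in CK, and their part in the other results was not tested. The hairpin lies at positions 20557512 to 20557614 of linkage group 1, outside protein-coding genes of the table.

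miR-375-3p spread widely between libraries. miR-375 is best known from mammals, where it acts in the hormone-releasing cells of the pancreas. The level was 427, 1430 and 1156 CPM on D10, 302, 517 and 820 CPM on D20 and 150, 713 and 219 CPM on D30, against 362, 287 and 167 CPM in CK. The D10 libraries were all above CK, whereas D20 and D30 overlapped with it. On average over the days the log2 fold change was 1.1 (SE 0.54, 95% interval -0.08 to 2.28), with an adjusted p of 0.914 (edgeR's quasi-likelihood test). Without D30-2 the D30 value was -0.56, so this member too was on one side of CK on all 3 days only with that library included. The hairpin lies at positions 6120162 to 6120261 of linkage group 3, within the span of LOC113218672.

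miR-6040-3p, a miRNA annotated in the honeybee, had the largest pooled value of the members of at least 1 CPM. It was at 5.78, 18.9 and 21.3 CPM on D10, 7.62, 9.39 and 14.2 CPM on D20 and 6.6, 17 and 7.48 CPM on D30, against 5.04, 5.82 and 4.49 CPM in CK. In 8 of 9 treated libraries it was above all CK libraries. Its pooled log2 fold change was 1.21 (SE 0.43, 95% interval 0.25 to 2.16), with an adjusted p of 0.652 (edgeR's quasi-likelihood test), and it was 1.16 without D10-2. The hairpin lies at positions 13616370 to 13616448 of linkage group 11, within the span of LOC725462, and 494 bases from that of miR-6000a. miR-6000a-3p had no count in CK and 26 counts over 5 treated libraries, of which 14 were in D10-2, too few for a fold change.

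The libraries high for one of these miRNAs were often high for the others. D10-2 and D10-3 ranked first and second among the 12 libraries for miR-281-3p and miR-375-3p, and were the highest 2 for miR-6040-3p in the other order. For miR-281-3p and miR-375-3p, D30-2 was the one D30 library above all CK libraries, while D30-1 and D30-3 were at 21.7 and 18.7 CPM for miR-281-3p and at 150 and 219 CPM for miR-375-3p, within or below the CK range in each case. For miR-6040-3p all 3 D30 libraries lay above CK, with D30-2 the highest. High levels in these libraries were not particular to these miRNAs. D10-2, D10-3 and D30-2 were also highest, in that order, for miR-12-5p (3194, 2904 and 2460 CPM) and miR-3477-5p (2596, 1990 and 1550 CPM). The same held for miR-8-3p (3673, 2627 and 2470 CPM), named after its values were seen.

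miR-210-3p, which in flies is needed for the upkeep of photoreceptors and acts on circadian behaviour, showed similar values on all days. It was at 756, 1376 and 1079 CPM on D10, 1244, 1044 and 1082 CPM on D20 and 1491, 1102 and 1054 CPM on D30, against 784, 802 and 927 CPM in CK. Of the 9 treated libraries, 8 lay above CK and D10-1 lay below it. The 3 days pooled gave a log2 fold change of 0.44 (SE 0.18, 95% interval 0.05 to 0.83), with an adjusted p of 0.732 (edgeR's quasi-likelihood test). The daily values were 0.35, 0.42 and 0.54. Without D10-2 the D10 value was 0.15 and the pooled value 0.37. The hairpin is at positions 14416134 to 14416218 of linkage group 2, outside protein-coding genes of the table.

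The other 4 higher members of at least 1 CPM were at 1.53 ± 0.406 CPM (miR-6048-3p), 3.72 ± 1.17 CPM (miR-1175-3p), 5.71 ± 0.965 CPM (miR-3478-3p) and 3.12 ± 1.39 CPM (miR-3782-5p) in treated libraries (SD, n = 9). In CK they were at 0.999 ± 0.336, 2.58 ± 0.697, 4.52 ± 0.438 and 2.13 ± 0.43 CPM in the same order (SD, n = 3). Their pooled log2 fold changes were 0.59, 0.52, 0.33 and 0.53, with SE between 0.21 and 0.35, and the ranges of treated and CK libraries overlapped for each. Single libraries moved 3 of these values by over 1.5 times. miR-6048-3p was at 0.36 without CK-1, miR-1175-3p at 0.33 without CK-1 and 0.34 without D10-2 (D10 then -0.03), and miR-3782-5p at 0.34 without D10-2. miR-3478-3p and miR-3782-5p fell outside the rule for named miRNAs and were named after their values were seen. The hairpin of miR-750, which lies 21 bases from that of miR-1175, gave miR-750-3p at a pooled value of -0.09.

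**Figure D3:**
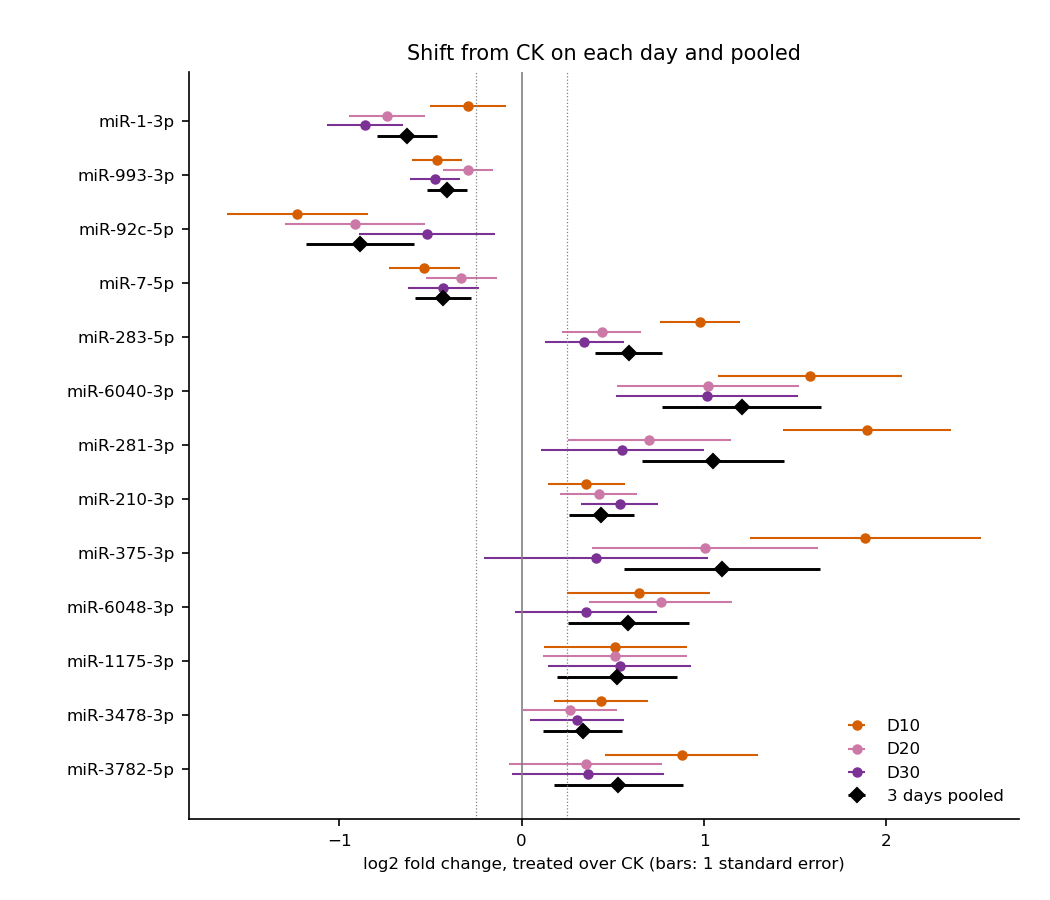
Log2 fold change over CK (horizontal axis, bars 1 SE) of the 13 shifted miRNAs of at least 1 CPM on D10, D20 and D30 (circles) and with the 3 days pooled (black diamonds); dotted lines mark 0.25 in either direction. The 4 lower miRNAs lie left of 0 and the 9 higher ones right of it on each day, and miR-281-3p (1.90), miR-375-3p (1.89) and miR-6040-3p (1.58) lie farthest right on D10.

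How stable the 13 were was examined by leaving out each of the 12 libraries in turn. miR-283-5p, miR-92c-5p and miR-6040-3p met the definition in all 12 fits. miR-281-3p, miR-210-3p and miR-1175-3p met it in 11 fits, miR-6048-3p in 10, miR-3782-5p in 9 and miR-3478-3p in 7. miR-1-3p failed it without CK-1 or D10-2, miR-993-3p without CK-3 or D20-1, miR-7-5p without CK-2 or D20-1 and miR-375-3p without CK-3 or D30-2, because 1 day then fell short of the size or, for miR-375-3p, changed side in the case of D30-2. All 12 fits kept the sign of the pooled value for each of the 13, and the smallest adjusted p in any of them was 0.292 (edgeR's quasi-likelihood test). The share of high-quality reads in the study's read statistics split the libraries into a higher and a lower kind, and every group except D20 held both kinds. All D20 libraries were of the higher kind, so values within the lower kind rest on D10 and D30 only. Within the 6 treated libraries and 1 CK library of higher read quality the log2 difference from CK was 0.53 for miR-210-3p, 1.01 for miR-1175-3p and -0.85 for miR-1-3p. Within the 3 treated and 2 CK libraries of lower read quality it was 0.20, 0.15 and -0.38 for the same miRNAs. Since these miRNAs were chosen by their sign in the same libraries, neither the sign kept in the 12 fits nor the sign within each kind is further support.

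Of the shifted members below 1 CPM, 4 were lower and 7 higher, and counts describe them better than fold changes. miR-6001-5p had 2, 4 and 9 counts in the CK libraries and 0 in all 9 treated ones. With 3 counts as the limit that a count of 0 allows in each library, the CK mean of miR-6001-5p lay 1.66-fold above the limit for treated libraries. The CK mean rests on 15 counts with a counting error of its own, so this is no bound on the fold change. The opposite arm of the miR-6001 hairpin, which lies within the span of the gene Vhdl, was measured at 2.77 ± 0.735 CPM in treated libraries and 2.26 ± 0.4 CPM in CK. The 3p arm thus did not share the lower counts of the 5p arm, which are few. miR-9883-5p had 14 counts in the treated libraries, 9 of them in D10-2, and 15 in CK. miR-9872-5p had 142 counts in all and was below CK in 7 of 9 treated libraries, and miR-6042-3p had 79 counts and was below CK in 6. Among the higher ones, miR-6057-5p had 4 to 27 counts in each treated library and 2, 0 and 5 in CK, and miR-9875-3p had 0 to 6 counts in each treated library and 0, 0 and 3 in CK. The other 5 were miR-6000a-3p, miR-iab-4-5p, miR-6055-5p, miR-9892-3p and miR-3726-5p, with 25 to 107 counts each.

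Some members had a low pooled p without lying on one side on all days. miR-316-5p was at 17.3, 37.3 and 29 CPM on D10, 11.3, 9.74 and 6.9 CPM on D20 and 11.9, 13.4 and 10.2 CPM on D30, against 34.8, 23.7 and 23.9 CPM in CK. The D10 libraries straddled CK, and the D20 and D30 libraries lay below it. Its pooled log2 fold change was -0.92 (SE 0.24), with an adjusted p of 0.442, and the difference between days had an adjusted p of 0.218 (both edgeR's quasi-likelihood test). DESeq2 called it in both tests, at adjusted p of 0.0319 and 0.000302. A pooled value thus stood for D20 and D30 and not for D10. miR-315-5p, which promotes Wingless signalling in flies, had daily values of -0.19, -0.45 and -0.51 and averaged 1102 ± 153 CPM in treated libraries and 1430 ± 282 CPM in CK. Its pooled value of -0.38 was -0.21 without CK-2. miR-989-3p had daily values of 0.43, 0.50 and 0.15 and averaged 194.8 ± 24.4 CPM in treated libraries and 150.9 ± 11.4 CPM in CK. It lay above all CK libraries in 8 of 9 treated libraries, yet its D30 value fell short of the size asked for. The other 4 members with an unadjusted p under 0.05 and no shift on all 3 days were miR-31a-5p, miR-13b-3p, miR-12-5p and miR-277-3p. Over all members, 0 differed between the treated days after correction, and 18 had an unadjusted p under 0.05 for a difference between days (10.8%, against 12.9% of all entries, edgeR's quasi-likelihood test).

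The 5 most abundant members lay close to CK. miR-276-3p, which acts in olfactory memory in flies, averaged 231400 ± 26370 CPM in treated libraries and 244300 ± 10260 CPM in CK, a pooled log2 fold change of -0.08 (95% interval -0.28 to 0.11). miR-2796-3p averaged 214400 ± 26230 CPM in treated libraries and 198500 ± 32450 CPM in CK, with a log2 fold change of 0.11. miR-184-3p had 0.11, miR-981-3p had 0.02 and miR-317-3p had 0.01. The signs of the last pair changed with other scalings, filters or left-out libraries, and neither treated mean departed from that of CK by more than the spread between replicates.

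Of the neuronal marker miRNAs, miR-124-3p was abundant, as is usual for brain, whereas miR-1000-5p ranked 84 of 167 by mean CPM (19.4 CPM). miR-124-3p, which marks neurons throughout animals, ranked 8 of 167 by mean CPM, with 18350 to 36130 CPM in treated libraries (median 19900) and 13320, 21160 and 15030 CPM in CK. Its pooled log2 fold change was 0.41 (SE 0.20, 95% interval -0.03 to 0.85), which was 0.26 without CK-1 and 0.63 without CK-2. By day it was 0.61, 0.41 and 0.21, the last just under the size asked for. Within the libraries of lower read quality, which held none of D20, the log2 difference from CK was 0.08. miR-137-3p had 0.03, with 0.16 within the libraries of higher read quality and -0.16 within those of lower. miR-1000-5p had 0.31, with 0.86 and -0.37 in these kinds, and it was 0.05 without D10-2, 0.13 without CK-1 and 0.53 without CK-2.

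Members were also grouped by known role, and in no group did a member pass the test. Of the 8 neuronal miRNAs, 4 had a pooled value above 0 and 4 below, with a median log2 fold change of -0.03, between miR-7-5p (-0.43) and miR-219-5p (1.05, which was -0.11 without D10-2). The 6 members of the let-7 complex and of the cluster of miR-317, miR-277 and miR-34, which act in developmental timing and ageing in flies, split 3 and 3 with a median of 0.00032. Their extremes were miR-277-3p at -0.21 and miR-34-5p at 0.17. The 5 miRNAs of fat and insulin metabolism had 3 above 0 and a median of 0.23, with miR-33-5p at 0.32 (0.19 without D10-2 or without CK-2) and miR-14-3p at -0.09. The 6 of growth and cell survival had 4 above 0 and a median of 0.02, with miR-71-5p at 0.11 and miR-13b-3p at -0.33. The 8 sense organ and eye miRNAs had 7 above 0 and a median of 0.14, with miR-210-3p at 0.44 and miR-263b-5p at -0.20. Within this group miR-279a-3p, miR-279b-3p, miR-279c-3p, miR-279d-3p and miR-996-3p share one seed, so its members are not separate cases. miR-7-5p (-0.43), which also acts in photoreceptors, was counted in the neuronal group. The 3 Hox cluster members had 1 above 0 and a median of -0.16, the 2 muscle markers a median of -0.29 and the 2 markers of other organs a median of 0.71, beside a median of 0.04 over all entries tested.

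**Figure D4:**
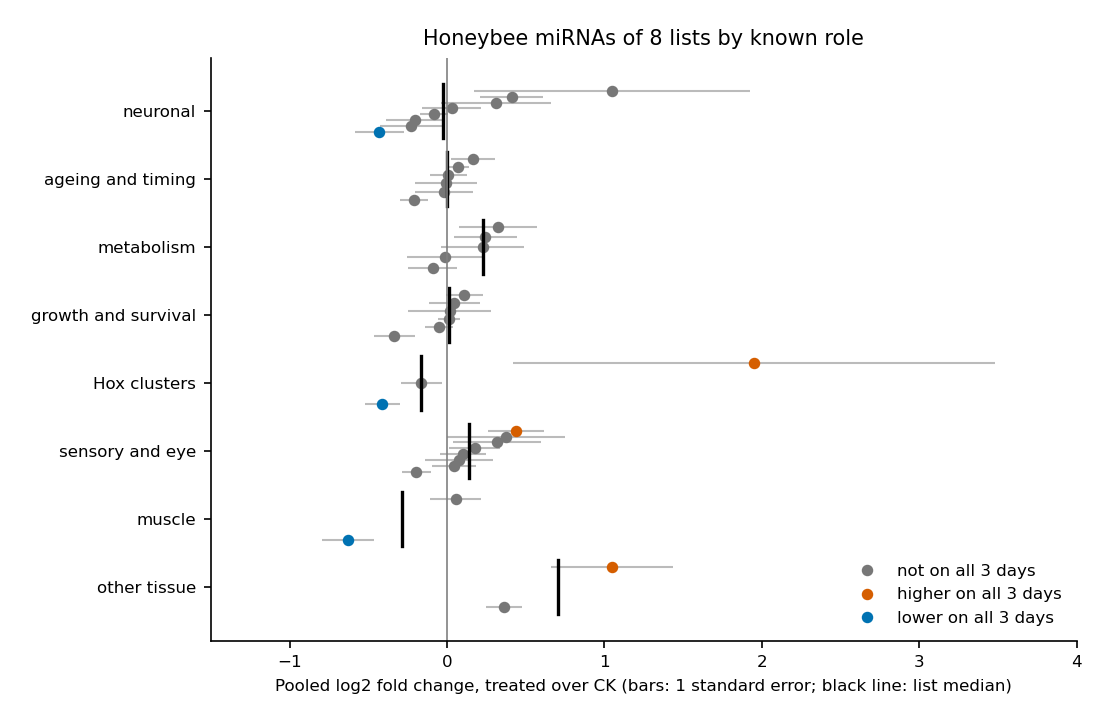
Pooled log2 fold change over CK (horizontal axis, bars 1 SE) of the members of 8 groups of known role, with the group median as a black line. Orange and blue points were higher and lower by at least 0.25 on all 3 days. Most points lie between -0.43 and 0.44, and the far right point of the Hox group, miR-iab-4-5p, rests on 61 counts.

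Other entries from the same hairpins gave a further view of the shifts. Among the hairpins of shifted members, 10 entries without a honeybee annotation had at least 100 counts, 5 of the same arm and 5 of the opposite arm. All 10 had a pooled value of the same sign as the annotated miRNA, both entries of miR-210 lying at 0.03, next to 0. By day this held less well. miR-7-x, miR-281-x and miR-375-y kept that sign on each of the 3 days, whereas the other 7 had 1 day on the other side of CK. These were D10 for miR-1-x (0.13), miR-1-y (0.04), miR-210-x (-0.28) and miR-210-y (-0.07), D20 for miR-283-x (-0.08) and miR-7-y (0.03), and D30 for miR-993-x (0.05). Of the unannotated entries under 100 counts, miR-993-y (29 counts) had the pooled sign of its annotated miRNA. miR-6040-y (11 counts), miR-281-y (29) and miR-3782-x (56) had the other sign. Of the annotated partners, miR-92c-3p and miR-6000a-5p had the same sign as the shifted member and miR-6001-3p had the other. Entries of a hairpin are counted in the same libraries, in which the shifted members were chosen by their sign, and are no independent measurement. miR-7-x, 2 bases longer than miR-7-5p, averaged 45.0 ± 9.65 CPM in treated libraries and 69.4 ± 6.81 CPM in CK, with a log2 fold change of -0.63 (SE 0.20, adjusted p of 0.574, edgeR's quasi-likelihood test). The opposite arm, miR-7-y, had -0.36 (SE 0.19). For miR-1, the longer form miR-1-y had -0.45 (SE 0.24) and the opposite arm miR-1-x -0.41 (SE 0.29). For miR-993, the opposite arm had -0.19 (SE 0.40).

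The 5p arm of miR-281, miR-281-x, was more abundant than the annotated 3p arm, with 58152 counts against 5669. It was at 582, 707 and 770 CPM on D10, 276, 255 and 331 CPM on D20 and 181, 617 and 203 CPM on D30, against 287, 221 and 194 CPM in CK. All D10 libraries, D20-3 and D30-2 lay above CK, as they did for the 3p arm, while D20-1 and D20-2 lay within the CK range here and above it for the 3p arm. Pooled over the days it had a log2 fold change of 0.79 (SE 0.34). miR-375-y averaged 6.33 ± 4.1 CPM in treated libraries and 1.79 ± 0.981 CPM in CK, with a log2 fold change of 1.70 (SE 0.46, adjusted p of 0.442, edgeR's quasi-likelihood test).

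For miR-283 and miR-210 the longer form moved less than the annotated one. miR-283-x, which has 22 bases to the 20 of miR-283-5p and the same seed, averaged 189 ± 30.9 CPM in treated libraries and 168 ± 2.24 CPM in CK, with a log2 fold change of 0.16 (SE 0.11). It made up 11.8% to 20.1% (median 16.7%) of the counts of both forms in treated libraries and 19.99% to 21.99% in CK, and was below the CK range in 8 of 9 treated libraries. miR-210-y, which has 23 bases to the 21 of miR-210-3p, had a log2 fold change of 0.03 (SE 0.24). Its share of both forms was 1.95% to 2.78% (median 2.29%) in treated libraries and 2.98% to 3.36% in CK, so that all 9 treated libraries lay below CK. These shares were looked at after the levels were seen and were given no test. They were taken for the hairpins named in this paragraph only, so no share over all entries stands beside the separation for miR-210. The annotated forms of miR-283 and miR-210 were chosen as higher in the same libraries, which by itself lowers the share of the other form. For miR-7 the longer form took 1.5% to 2.56% in treated libraries and 2.16% to 2.22% in CK, with 7 treated libraries below the CK range and 2 above it. For miR-1 it took 2.59% to 7.25% in treated libraries and 3.04% to 4.07% in CK, ranges that overlapped. For miR-375 it took 0.733% to 1.79% in treated libraries and 0.502% to 0.768% in CK, above the CK range in 7 of 9.

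**Figure D5:**
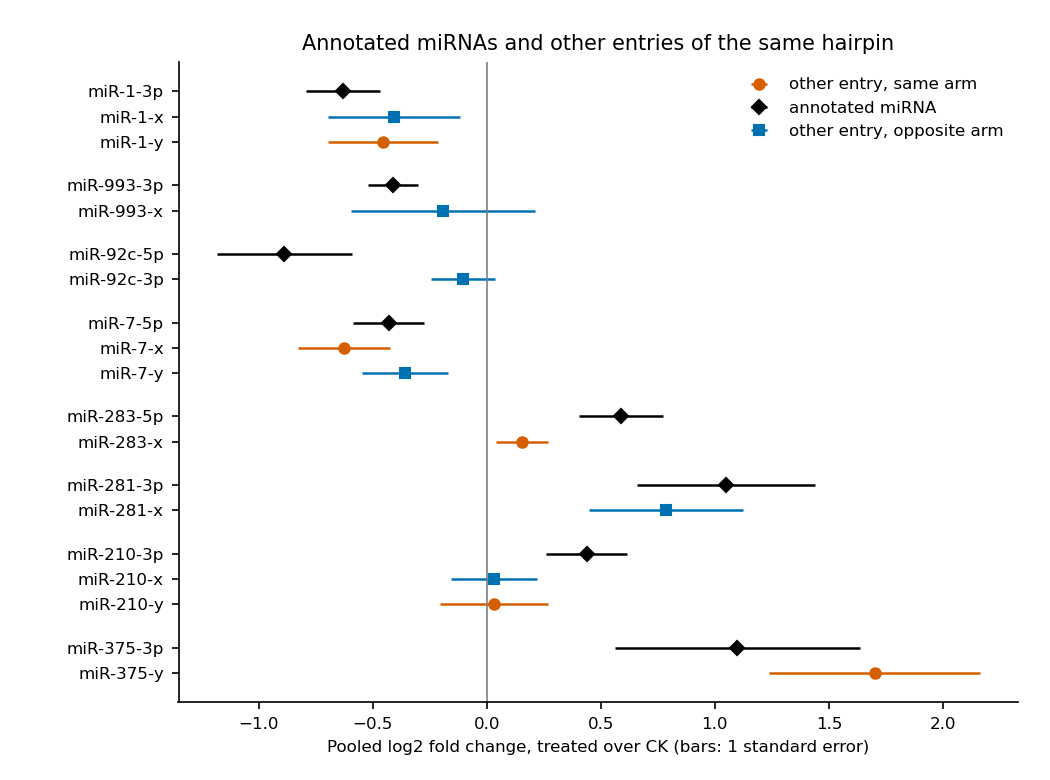
Pooled log2 fold change over CK (horizontal axis, bars 1 SE) of shifted miRNAs of at least 1 CPM (black diamonds) and of other entries of the same hairpin with at least 100 counts, on the same arm (orange circles) or the opposite arm (blue squares). With the days pooled, all entries shown lie on the same side of 0 as their annotated miRNA, and miR-283-x (0.16) and miR-210-y (0.03) lie nearer 0 than miR-283-5p (0.59) and miR-210-3p (0.44).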

How the data were processed

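Small RNA was sequenced from 3 libraries each of D10, D20, D30 and CK. The authors filtered the reads, dropped tags read a single time (so the lowest levels are understated), removed other RNA classes with Blastall and exon, intron and repeat tags with Bowtie, assigned the rest to miRBase and predicted hairpins, and deposited a raw read count for each miRNA. TPM values from the same deposited tables served in 1 alternative. Near-identical entries of a hairpin share reads as the authors assigned them. Entries with at least 10 counts and a count in at least 3 libraries were fitted with edgeR 4.0.16 in R 4.3.3 (TMM, 4 group means, quasi-likelihood F test, mean of the 3 days minus CK, Benjamini-Hochberg). DESeq2 1.42.0 and limma 3.58.1 were alternatives. The fit was also run on simulated counts, the outcome of which is not given or used here. Exact permutation tests used log2(CPM + 1). Replicate libraries differed by more than counting noise, and floors cover counting error only. Named were up to 10 higher and 10 lower shifted miRNAs of smallest p (10 and 8 here), the 5 most abundant, 3 of low p not shifted on all 3 days, the markers and the extremes of each group. The members, groups and rules were chosen with earlier results of these data known. Hairpin positions were looked up in RefSeq genes of Amel_HAv3.1. Tables were made with pandas 2.3.3 and numpy 2.4.6 in Python 3.11.15.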

Additional observations from a re-analysis of the deposited data

Results flagged for a closer look

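Among 31 named miRNAs of at least 1 CPM, the gap between the highest or lowest of the 9 treated libraries and its neighbour was compared with the whole range on a log scale. The limit used is passed by chance in about 1 of 20 separate tests of a single group. That rate does not apply here, since the 9 libraries span 3 days and are shared by all 31 miRNAs. Some of the 31 were also named by fold change, among them miR-219-5p, whose pooled value rested on D10-2. The limit was passed by 7, and D10-2 accounted for 5 of these. In that library miR-283-5p was at 1815 CPM (706 to 1038 CPM in the other treated libraries), miR-124-3p at 36130 CPM (18350 to 24710 CPM) and miR-1000-5p at 47.5 CPM (13.3 to 22.6 CPM). In the same library miR-219-5p was at 756 CPM (19.1 to 36.5 CPM) and miR-317-3p, the one low value, at 29950 CPM (38930 to 48400 CPM). D30-1 held miR-34-5p at 3060 CPM (1908 to 2389 CPM), and D10-1 held miR-13b-3p at 2697 CPM (1617 to 2083 CPM).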

How the results depend on the processing

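The count of members differing between pooled treated days and CK was 0 in every alternative run except DESeq2, which called 3. The count differing between days was 0, but 4 with DESeq2, 1 with a term for read quality and 0 to 2 with 1 library left out (2 without D30-2 or without D30-3). No shares over all entries stand beside these alternative counts. The 24 shifted members numbered 15 (8 higher, 7 lower) with limma on log2(TPM + 1) and 21 to 32 with 1 library left out. With other sizes, chosen after seeing the data, there were 78 (any size), 52 (at least 0.1) and 10 (at least 0.5). With a replicate block 0 members were called and 25 were shifted, but the replicate numbers did not pair the libraries (median correlation of same-numbered libraries -0.156 over 18 pairs, from -0.607 to 0.495). Without any filter the median log2 fold change of all entries was 0.46, and without the minimum of libraries 0.12, against 0.04. None of the 18 shifted members named by rule changed sign, but they were chosen by their sign in the same libraries, so this is no further support. Some other named miRNAs did change sign. Within the 3 treated (none of D20) and 2 CK libraries of lower read quality, miR-1000-5p was at -0.37, miR-219-5p at -0.26, miR-2796-3p at -0.04 and miR-33-5p at -0.01. miR-981-3p was at -0.00836 with library totals alone, -0.013 with edgeR's filterByExpr, -0.035 with a term for read quality and -0.14 to 0.31 with 1 library left out. miR-317-3p was at -0.019 with library totals alone, -0.022 with filterByExpr, -0.027 with limma, -0.0034 with same-number entries summed and -0.0686 to 0.0887 with 1 library left out. miR-137-3p was at -0.00346 with library totals alone, -0.00409 with filterByExpr, -0.015 with limma, -0.012 with a term for read quality and -0.0856 to 0.166 with 1 library left out. With 1 library left out miR-133-3p ranged from -0.0296 to 0.11 and miR-219-5p from -0.11 to 1.26. Depth limits the 31 members under 1 CPM, and the cause of these differences was not tested.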
